A study of Mus musculus with 29 samples.

Results

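The mitochondrial solute carriers are the genes whose symbol begins with Slc25a and a number, the main family of transport proteins of the inner mitochondrial membrane. In the deposited table of mouse hearts, 44 of 29955 rows carry such a symbol. Values are FPKM, which scale the sequenced fragments of a gene by its length and by library depth, so levels of different genes are given per length. Of the 44 members, 37 averaged 0.5 FPKM or more in the libraries used and were tested among 12759 genes that passed the same filter. The other 7 members (Slc25a2, Slc25a18, Slc25a21, Slc25a31, Slc25a41, Slc25a43 and Slc25a48) stayed below that mean and were not tested.

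Each carrier is a single chain of repeated membrane-spanning modules that opens in turn to the matrix and to the space between the membranes, and most exchange one metabolite for another. The family moves ADP, ATP and phosphate for oxidative phosphorylation, acylcarnitines for fatty acid oxidation, the malate, oxoglutarate, aspartate and glutamate of the shuttle that carries the reducing power of NADH inward, and cofactors, nucleotides, amino acids and iron. The heart makes nearly all of its ATP in mitochondria, and its carrier set is dominated by the muscle form of the ADP/ATP carrier.

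The study followed male wild-type C57BL6 mice (C57BL/6J in the methods) through heart failure (HF) and its reversal, with 3-month-old animals at the start. Induction ran for 5 weeks, and HF week 3 was taken partway through it, at week 3. Until they were taken, the HF groups drank L-NAME, an inhibitor of nitric oxide synthases (0.3 mg/ml), in water containing salt (NaCl, 1%), and received angiotensin II at 0.7 mg/kg/day from a 28-day osmotic pump placed 1 week after the water was begun. The Recovery groups had gone through the same induction, after which the water was returned to normal and the pump ran out. Control mice were given neither agent, and those used were age-matched to the recovered animals of week 19. Another 4 samples are labelled as controls of week 5, but 5 columns are named for them, so these columns were not used. RNA came from pieces of heart that the labels call whole heart and whole ventricle and the methods describe as apical, so several cell types contribute to every value. The groups used were HF week 3 (2 libraries), HF week 5 (3), Recovery weeks 7 (2), 9 (2), 11 (3), 13 (2) and 19 (5), and Control week 19 (5), counted from the start of induction, 24 libraries in all. Control week 19 and Recovery week 19 were taken 14 weeks later than HF week 5. Age and treatment therefore cannot be told apart in comparisons of HF with either group. The columns name a group but no animal, and the library numbers below are only names.

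Differences were tested with limma on log2(FPKM + 0.5), a scale that understates the change of genes expressed at low level, and a gene was called at a Benjamini-Hochberg adjusted p under 0.05 over all 12759 genes. The spread that limma uses is that between libraries of a group, which may include technical differences. The number of reads in each library is unknown. The spacing of low values gave a relative depth of 0.723 to 1.386 in 23 libraries. HF week 3 library 1 had no such spacing, and it listed 12816 genes above 0 compared to 16339 to 18091 in the others. HF week 5 library 1 stood apart through genes of the atria: the sum of Myl7, Myl4, Nppa and Sln was 81700 FPKM there, 2510 and 2230 FPKM in libraries 2 and 3, and 89.6 to 349 FPKM in controls. Markers of cardiomyocytes were present in every library, but Myh6 was listed at 0 in all libraries of Control week 19, HF week 5 and Recovery week 19 and above 0 in all of HF week 3 and Recovery weeks 7 to 13. A difference in how these 2 sets of groups were processed was not tested.

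Promoters of members that changed at HF week 5 are shown first: 3 carriers that fell, Slc25a20, Slc25a34 and Slc25a16, and the 1 that rose, Slc25a1. The 3 had the largest falls on the log2(FPKM + 0.5) scale with all libraries, and Slc25a34 was not called without HF week 5 library 1. Each line gives the 250 bases before the start site from RefSeq on GRCm38.p6, 5′ to 3′ on the gene's strand. Capitals mark the letters GGGCGG, the core bound by Sp1, and AAGGTCA, the core bound by oestrogen-related receptors, on either strand. The windows are chr9:108661886-108662135 (plus strand) for Slc25a20, chr4:141623835-141624084 (minus) for Slc25a34, chr10:62920383-62920632 (plus) for Slc25a16 and chr16:17928220-17928469 (minus) for Slc25a1.
Slc25a20: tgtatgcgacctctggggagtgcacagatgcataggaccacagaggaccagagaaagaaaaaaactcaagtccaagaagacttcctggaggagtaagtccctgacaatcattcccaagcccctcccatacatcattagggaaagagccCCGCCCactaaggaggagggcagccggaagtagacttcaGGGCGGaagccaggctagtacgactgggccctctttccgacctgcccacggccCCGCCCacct
Slc25a34: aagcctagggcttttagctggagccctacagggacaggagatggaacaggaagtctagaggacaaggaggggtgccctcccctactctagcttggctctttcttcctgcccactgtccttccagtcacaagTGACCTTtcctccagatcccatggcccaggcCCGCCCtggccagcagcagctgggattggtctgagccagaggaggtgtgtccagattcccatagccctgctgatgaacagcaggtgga
Slc25a16: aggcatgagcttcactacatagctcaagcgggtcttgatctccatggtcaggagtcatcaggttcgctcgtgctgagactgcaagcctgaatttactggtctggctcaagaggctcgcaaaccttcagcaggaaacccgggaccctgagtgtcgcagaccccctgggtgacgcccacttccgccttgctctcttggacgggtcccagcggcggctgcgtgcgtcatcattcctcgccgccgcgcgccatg
Slc25a1: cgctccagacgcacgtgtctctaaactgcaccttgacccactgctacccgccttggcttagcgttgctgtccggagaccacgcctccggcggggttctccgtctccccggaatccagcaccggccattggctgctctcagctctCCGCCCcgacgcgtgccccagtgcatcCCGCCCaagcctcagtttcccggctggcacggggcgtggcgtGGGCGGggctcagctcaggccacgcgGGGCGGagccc

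The table of promoters held 43 windows of 34 members, each of 300 bases from 250 before to 50 after a start, including 8 of the 10 members that fell at HF week 5. GGGCGG was found in 36 of the 43 windows (83.7%), compared to 35.7% of all 32851 windows of that length, and in 6 of the 8 windows of members that fell. The windows compared were not matched for their content of G and C or for expression in the heart. AAGGTCA was in the window of Slc25a34 and of no other member, compared to 4.72% of all windows. The longer receptor site TNAAGGTCA, which contains AAGGTCA, was in no member window and in 1.28% of all. The palindromic site of nuclear respiratory factor 1 was in no member window and in 0.971% of all. A match in letters is a description of the sequence, and no factor was measured on it.

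In control hearts a single gene made up most of the family. Slc25a4, the ADP/ATP carrier of heart and muscle that exports ATP from the matrix, stood at 6391, 6802, 6087, 6278 and 6702 FPKM in the 5 libraries of Control week 19, a mean of 6452 ± 297 (SD, n = 5). That was 72.5% to 75.2% of the summed FPKM of all 44 members. Slc25a3, the phosphate carrier that brings in the phosphate from which ATP is made, followed at 1064 ± 29.9 FPKM (SD, n = 5). Next came Slc25a11 (391 ± 29.0), Slc25a5 (240 ± 15.3), Slc25a39 (116 ± 6.18) and Slc25a20 (112 ± 12.5), each as mean FPKM ± SD of the 5 control libraries. The libraries of neighbours did not overlap among the first 5, whereas Slc25a39 and Slc25a20 overlapped, as did most neighbours further down the order. By control mean, 2 members were above 1000 FPKM, 4 lay between 100 and 1000 FPKM, 12 between 10 and 100 FPKM, 18 between 1 and 10 FPKM, and 8 below 1 FPKM.

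**Figure D1:**
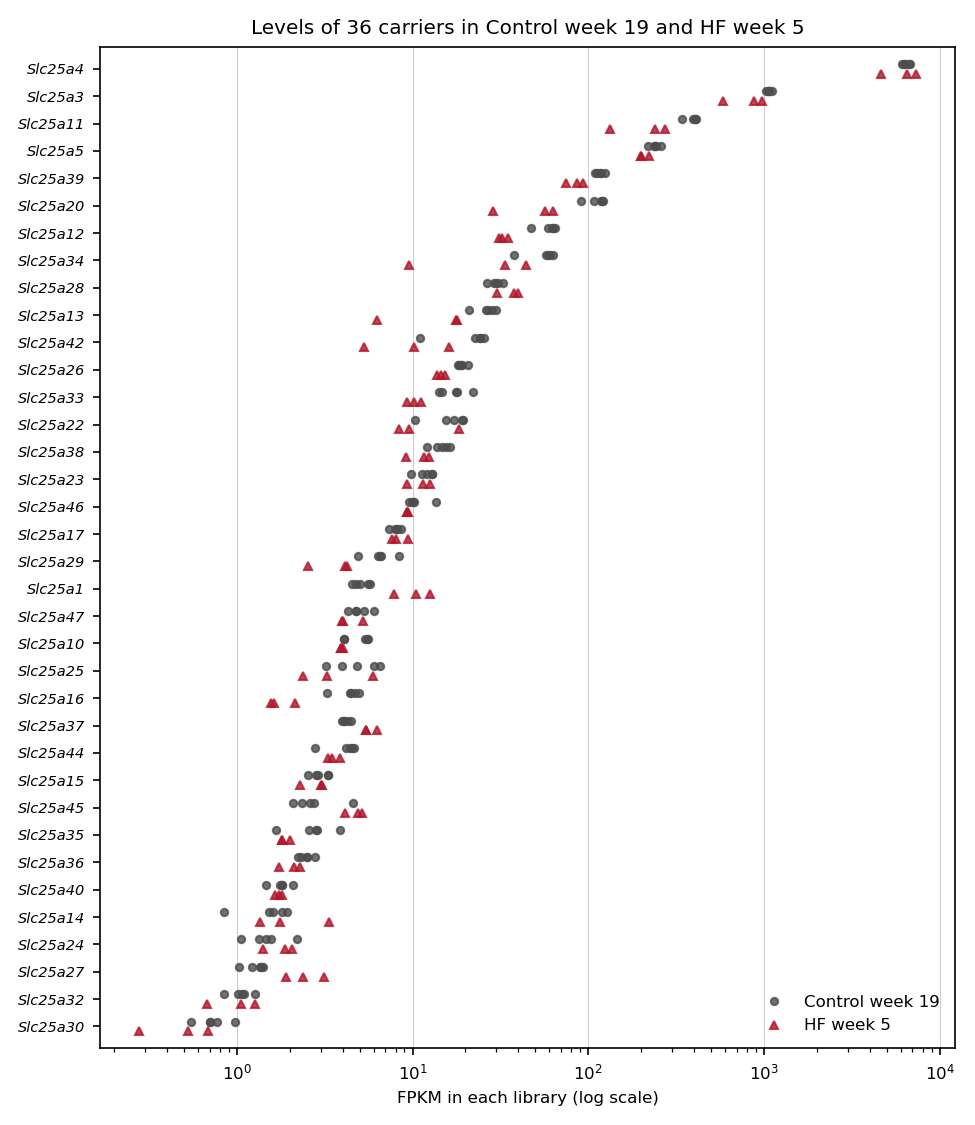
FPKM of 36 tested carriers (vertical axis, ordered by the control mean) in each library of Control week 19 (grey circles) and HF week 5 (red triangles), on a log scale. Slc25a4 lies highest in both groups, and Slc25a20, Slc25a11, Slc25a12, Slc25a13 and Slc25a16 lie lower in all 3 HF libraries than in all 5 controls.

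At HF week 5, 3 of 4 tested carriers of fatty acids and coenzyme A and 3 of 4 of the malate-aspartate and glutamate group were lower than in control hearts, the citrate carrier was higher, and no carrier of the ATP and phosphate group passed the test. Of 37 members 11 were called, 10 lower and 1 higher. Over all genes tested 24% were called, 12.4% lower and 11.6% higher, so the share of members called lower (27%) can be read against 12.4%, and that called higher (2.7%) against 11.6%. The median log2 fold change was -0.27 over the members and 0.04 over all genes, and 29 of 37 members (78.4%) were below 0 compared to 46.1% of all genes. Libraries of the groups did not overlap for 16 members, or 43.2%, compared to 29.5% of all genes. At an unadjusted p under 0.05, the threshold named in the study's methods, 19 members were counted where 36.5% of all genes were.

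In whole tissue, fewer cells of a type and less RNA per cell cannot be told apart, and markers of other cells moved with these changes. Of the fibroblast list 6 of 8 genes were called higher at HF week 5, of the endothelial list 4 of 7, of the smooth muscle list 3 of 4 and of the atrial list 4 of 4. Leukocyte and blood markers did not move in this way, with 0 of 7 and 0 of 3 called in either direction. The summed fibroblast markers were 707, 357 and 609 FPKM in the HF week 5 libraries compared to 253 to 360 FPKM in controls. The endothelial sums were 426, 252 and 330 FPKM compared to 195 to 223 FPKM. The fat cell sums were 280, 259 and 38.0 FPKM compared to 32.9 to 40.3 FPKM. Of 10 cardiomyocyte markers 2 were called lower, and their sum was 23600, 35100 and 30200 FPKM compared to 29500 to 35000 FPKM in controls. The part of these shifts in the carrier values was not tested.

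**Figure D2:**
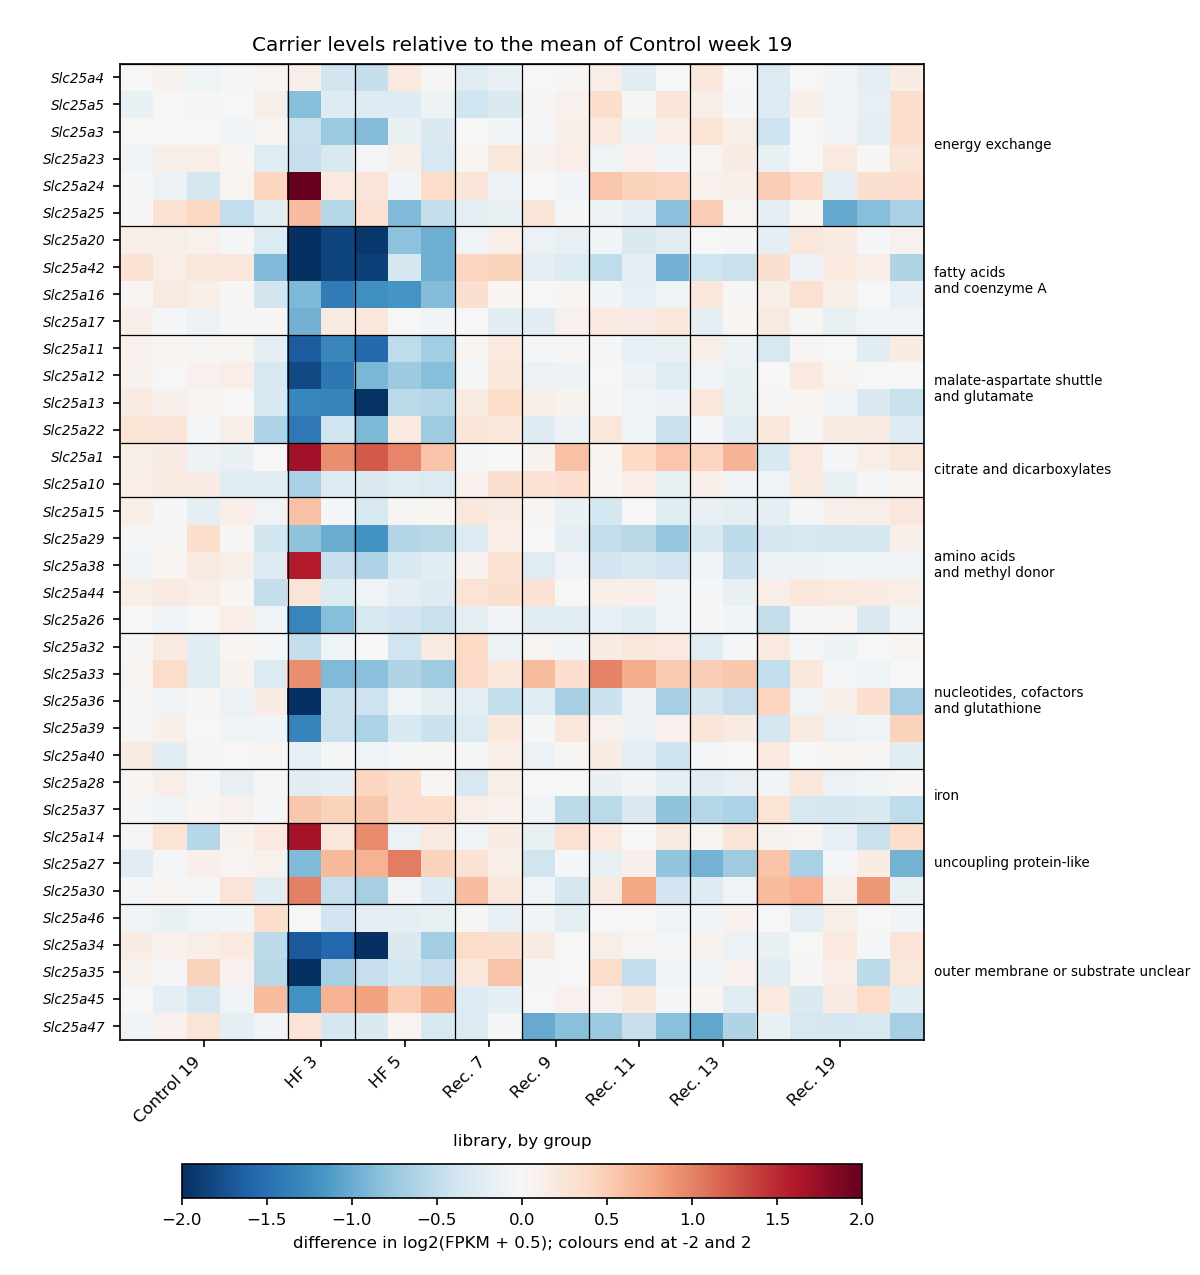
Heat map of 36 tested carriers (rows, by role) in 24 libraries (columns, by group), as the difference in log2(FPKM + 0.5) from the mean of Control week 19. Blue (lower than control) fills the rows of Slc25a20, Slc25a42, Slc25a16, Slc25a11, Slc25a12 and Slc25a13 in the 5 HF libraries, while the Recovery columns are mostly near white.

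Of the carriers of energy exchange, 0 of 6 tested members were called in either direction at HF week 5 by limma, with log2 fold changes between -0.43 and 0.19. Slc25a4 measured 4613, 7382 and 6531 FPKM, a mean of 6175 ± 1418 (SD, n = 3). Library 1 lay below every control and library 2 above every control, so the groups overlapped. The log2 fold change was -0.09 ± 0.17 (SE, limma adjusted p = 0.737), and its sign depended on HF week 5 library 1, without which it was 0.11 (adjusted p = 0.738). The share of Slc25a4 in the family sum was 78.6% to 79.4% in the 3 HF libraries, above the 72.5% to 75.2% of controls.

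Slc25a5, the more widely expressed ADP/ATP carrier, measured 200, 200 and 223 FPKM at HF week 5 compared to 218, 237, 244, 240 and 261 FPKM in controls. The highest HF library was inside the control range (log2 fold change -0.21 ± 0.14 SE, limma adjusted p = 0.290). The genome holds processed copies of this gene, and how shared reads were assigned is not given in the sources used here. The FPKM of Slc25a4 was 24.9 to 29.3 times that of Slc25a5 in controls and 23.1 to 36.98 times at HF week 5. Slc25a31, the ADP/ATP carrier of germ cells, was listed between 0.0613 and 0.289 FPKM in controls and was not tested.

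Slc25a3, the phosphate carrier, measured 584, 973 and 875 FPKM at HF week 5 compared to 1067, 1068, 1055, 1023 and 1106 FPKM in controls. All 3 HF libraries were below all 5 controls, but the difference did not pass the test (log2 fold change -0.43 ± 0.16 SE, limma adjusted p = 0.0656). Without HF week 5 library 1 the log2 fold change was -0.21 (adjusted p = 0.443). Slc25a3 was called lower in 3 of 18 alternatives, under quantile scaling, without HF week 5 library 2 and without the HF week 3 libraries, and its adjusted p ranged from 0.00605 to 0.443. The calcium-regulated carriers of ATP-Mg and phosphate, Slc25a23, Slc25a24 and Slc25a25, set the size of the adenine nucleotide pool in the matrix. Slc25a23, the most abundant of them, measured 11.3, 12.8, 12.9, 12.1 and 9.86 FPKM in controls and 11.5, 12.6 and 9.31 FPKM at HF week 5. Slc25a24 measured 1.46, 1.33, 1.06, 1.56 and 2.19 FPKM in controls and 1.88, 1.40 and 2.07 FPKM at HF week 5. Slc25a25 measured 4.84, 6.05, 6.56, 3.24 and 3.95 FPKM in controls and 5.97, 2.37 and 3.28 FPKM at HF week 5. The groups overlapped for all 3 genes. The log2 fold changes were -0.09 for Slc25a23, 0.19 for Slc25a24 and -0.36 for Slc25a25, with limma adjusted p of 0.619, 0.657 and 0.424.

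Of 4 tested carriers of fatty acids and coenzyme A 3 fell at HF week 5, with a median log2 fold change of -1.08 over the 4. Slc25a20 exchanges acylcarnitines for carnitine, the step by which long-chain fatty acids enter the matrix. It measured 121, 121, 118, 108 and 91.5 FPKM in controls and 28.9, 62.6 and 56.5 FPKM at HF week 5. Every HF library was below every control, and library 1 was the lowest. The mean was 44.1% of control, the log2 fold change was -1.24 ± 0.19 (SE), and the limma adjusted p was 0.000185. Without library 1 Slc25a20 was still called (log2 fold change -0.90, adjusted p = 0.000992).

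Slc25a16, linked to the import of coenzyme A, measured 4.48, 4.97, 4.72, 4.41 and 3.26 FPKM in controls and 1.56, 1.62 and 2.15 FPKM at HF week 5. Here the 3 HF libraries lay together, below all controls. The mean was 40.7% of control (log2 fold change -1.09 ± 0.14 SE, limma adjusted p = 7.75e-05), with -1.03 and an adjusted p of 0.00104 without library 1. Slc25a42, which carries coenzyme A into the matrix in exchange for adenine nucleotides, measured 25.5, 22.6, 24.2, 24.2 and 11.03 FPKM in controls and 5.31, 16.1 and 10.2 FPKM at HF week 5. The groups overlapped because control library 5 was lower than HF library 2. The fall passed the test (log2 fold change -1.06 ± 0.31 SE, limma adjusted p = 0.0173) and rested on library 1, without which it was -0.66 (adjusted p = 0.179). Slc25a17, the carrier of coenzyme A and its relatives in peroxisomes, was not called (log2 fold change 0.05, limma adjusted p = 0.860).

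The carriers of the malate-aspartate shuttle fell together. Both arms of the shuttle were among them: Slc25a11, which exchanges malate for oxoglutarate, and Slc25a12 and Slc25a13, the calcium-regulated exchangers of aspartate for glutamate. Of 4 tested members of this group 3 were called lower, with a median log2 fold change of -0.88.

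Slc25a11, the third most abundant carrier, measured 412, 403, 394, 404 and 340 FPKM in controls and 132, 272 and 240 FPKM at HF week 5. No HF library reached the lowest control (log2 fold change -0.92 ± 0.17 SE, limma adjusted p = 0.00108). Without library 1 it was -0.61 (adjusted p = 0.00769). Slc25a12, the aspartate-glutamate carrier of muscle and brain, measured 62.0, 59.2, 62.6, 64.7 and 47.2 FPKM in controls and 31.1, 35.1 and 32.5 FPKM at HF week 5. Its 3 HF libraries were close to one another, at 52.6%, 59.4% and 55.0% of the control mean. The log2 fold change was -0.83 ± 0.11 (SE, limma adjusted p = 8.36e-05) and -0.79 without library 1.

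Slc25a13, the form best known from liver, measured 29.98, 28.3, 27.0, 26.4 and 21.1 FPKM in controls and 6.31, 17.9 and 17.7 FPKM at HF week 5. All HF libraries were below all controls, with library 1 at 23.8% of the control mean and the other two at 67.5% and 66.6%. The log2 fold change was -1.03 ± 0.23 (SE, limma adjusted p = 0.00353) and -0.55 without library 1 (adjusted p = 0.0204). The FPKM of Slc25a12 was 2.07 to 2.45 times that of Slc25a13 in controls, and 4.93, 1.96 and 1.84 times in HF week 5 libraries 1, 2 and 3. Of the glutamate carriers, Slc25a22 measured 8.33, 18.4 and 9.56 FPKM at HF week 5 compared to 19.5, 19.2, 15.5, 17.3 and 10.3 FPKM in controls and was not called (log2 fold change -0.47 ± 0.25 SE, limma adjusted p = 0.183). Leaving out HF library 1 gave -0.26 (adjusted p = 0.608) and leaving out HF library 2 gave -0.80, which was called (adjusted p = 0.0255). Slc25a18, its relative, was between 0.0477 and 0.288 FPKM in controls and was not tested.

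**Figure D3:**
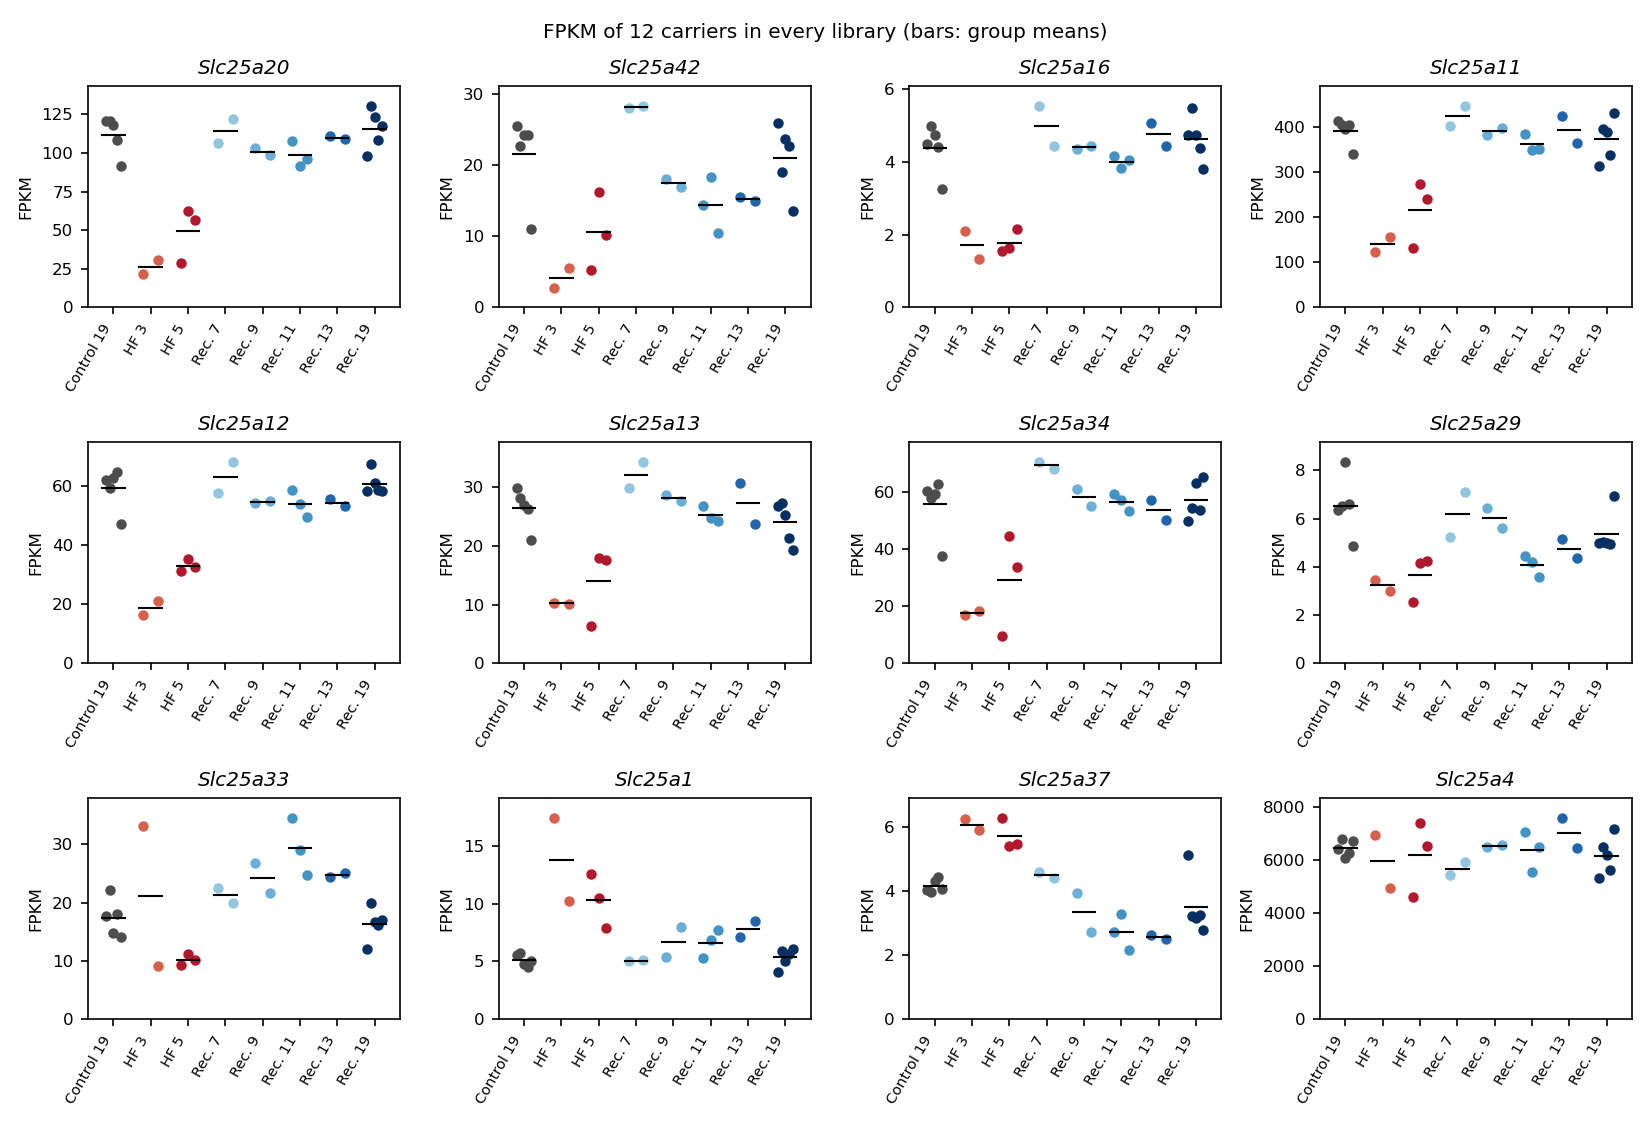
FPKM of 12 carriers in every library (points) with the group mean (bar), by group, on linear axes that start at 0. The 8 carriers from Slc25a20 to Slc25a29 are low at HF weeks 3 and 5 and mostly nearer to control in the Recovery groups, except that the group means of Slc25a42 and Slc25a29 were 81.4% to 131% of the control mean in Recovery weeks 7 and 9 and 62.3% to 72.7% in weeks 11 and 13. Slc25a1 and Slc25a37 are higher than control at HF weeks 3 and 5 and lower again in the Recovery groups. In Recovery weeks 9 to 13 the group means were 129% to 152% of the control mean for Slc25a1 and 61.9% to 80.2% for Slc25a37. Slc25a4 lies between 4613 and 7572 FPKM throughout.

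Slc25a1, the citrate carrier, which exports citrate to the cytosol as a source of acetyl-CoA for fatty acid synthesis, was the 1 member called higher at HF week 5. Under the alternatives with the same threshold, 1 to 4 members were called higher, with 4 both when the HF week 3 libraries were left out and when only the groups compared were fitted, where Slc25a27, Slc25a37 and Slc25a45 were added. Slc25a1 measured 5.56, 5.74, 4.74, 4.55 and 5.05 FPKM in controls and 12.6, 10.5 and 7.87 FPKM at HF week 5. Each HF library was above each control, from 153% to 245% of the control mean. The log2 fold change was 0.92 ± 0.18 (SE, limma adjusted p = 0.00150) and 0.78 without library 1 (adjusted p = 0.0193). The dicarboxylate carrier Slc25a10, which shares malate and succinate with it, was 80.3% of control and was not called (limma adjusted p = 0.125).

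Among carriers of amino acids and of the methyl donor, 2 of 5 fell and none rose. Both were chosen for their calls. Slc25a29, a carrier of basic amino acids, fell from 6.36, 6.54, 8.34, 6.59 and 4.87 FPKM to 2.55, 4.15 and 4.25 FPKM with no overlap (log2 fold change -0.77 ± 0.17 SE, limma adjusted p = 0.00298). Slc25a26, which brings in S-adenosylmethionine for methylation in the matrix, fell less, to 76.2% of control (log2 fold change -0.38 ± 0.11 SE, limma adjusted p = 0.0209). Over 18 alternatives, which included leaving out each library in turn, Slc25a26 was called in 16 and its adjusted p ranged from 0.00602 to 0.0752.

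The pyrimidine nucleotide carrier Slc25a33 measured 9.35, 11.1 and 10.2 FPKM compared to 17.7, 22.1, 14.8, 18.0 and 14.1 FPKM in controls. All HF libraries were lower and the adjusted p was 0.0513 (log2 fold change -0.72 ± 0.26 SE, limma), under 0.05 in 7 of 18 alternatives. Its relative Slc25a36 measured 2.50, 2.32, 2.52, 2.24 and 2.79 FPKM in controls and 1.73, 2.29 and 2.12 FPKM at HF week 5, and was not called (log2 fold change -0.23, limma adjusted p = 0.639).

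Slc25a39 and Slc25a40, carriers of glutathione, differed in level. Slc25a39 measured 74.8, 93.5 and 85.8 FPKM at HF week 5, all below the 117.6, 124.7, 117.0, 108.7 and 111.6 FPKM of controls (log2 fold change -0.46 ± 0.18 SE, limma adjusted p = 0.0734). Slc25a40 measured 2.08, 1.47, 1.805, 1.75 and 1.81 FPKM in controls and was within that range at HF week 5, at 1.65, 1.73 and 1.804 FPKM (log2 fold change -0.03 ± 0.13 SE, limma adjusted p = 0.884). A difference between their changes was not tested.

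The iron carriers, or mitoferrins, feed haem and iron-sulphur cluster synthesis. Slc25a37, the form prominent in red cell precursors, measured 6.28, 5.41 and 5.47 FPKM at HF week 5 compared to 4.05, 3.96, 4.31, 4.45 and 4.06 FPKM in controls. Every HF library was higher, with a log2 fold change of 0.41 ± 0.15 (SE, limma adjusted p = 0.0503), just short of the call. Slc25a28, the form of other tissues, measured 40.0, 37.9 and 30.4 FPKM compared to 30.7, 32.7, 28.9, 26.5 and 30.04 FPKM in controls and overlapped with controls (log2 fold change 0.27 ± 0.11 SE, limma adjusted p = 0.0891), and was called without HF library 3 (0.39, adjusted p = 0.0302). Slc25a28 FPKM was 5.97 to 8.25 times that of Slc25a37 in controls and 5.55 to 7.01 times at HF week 5.

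The carriers related to the uncoupling proteins, Slc25a14, Slc25a27 and Slc25a30, were below 2.5 FPKM in group mean at HF week 5 and in controls, and 0 of 3 were called there by limma. Slc25a14 measured 3.35, 1.35 and 1.76 FPKM at HF week 5 compared to 1.53, 1.94, 0.851, 1.61 and 1.81 FPKM in controls (limma adjusted p = 0.415). Slc25a30 measured 0.276, 0.688 and 0.524 FPKM compared to 0.700, 0.766, 0.703, 0.970 and 0.550 FPKM (limma adjusted p = 0.456). Both overlapped with controls. Slc25a27 measured 2.38, 3.12 and 1.90 FPKM compared to 1.03, 1.23, 1.41, 1.35 and 1.38 FPKM in controls, with every HF library above every control, at 193% of the control mean (log2 fold change 0.72 ± 0.32 SE, limma adjusted p = 0.106), and was called higher in 2 of 18 alternatives. Of 5 tested members of the outer membrane or with an unclear substrate, 1 fell. Slc25a34 measured 60.3, 57.8, 59.3, 62.7 and 37.7 FPKM in controls and 9.50, 44.5 and 33.7 FPKM at HF week 5. Control library 5 lay below HF library 2, so the groups overlapped. The log2 fold change was -1.15 ± 0.30 (SE, limma adjusted p = 0.00966), and without HF library 1 it was -0.49 (adjusted p = 0.0616).

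HF week 5 library 1 was the farthest from the control mean for 10 of the 11 called members. Without it 9 of the 11 were still called, all but Slc25a34 and Slc25a42. As a description of the 10 members chosen for their fall, their median was 38.1%, 69.3% and 61.7% of the control mean in HF week 5 libraries 1, 2 and 3.

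**Figure D4:**
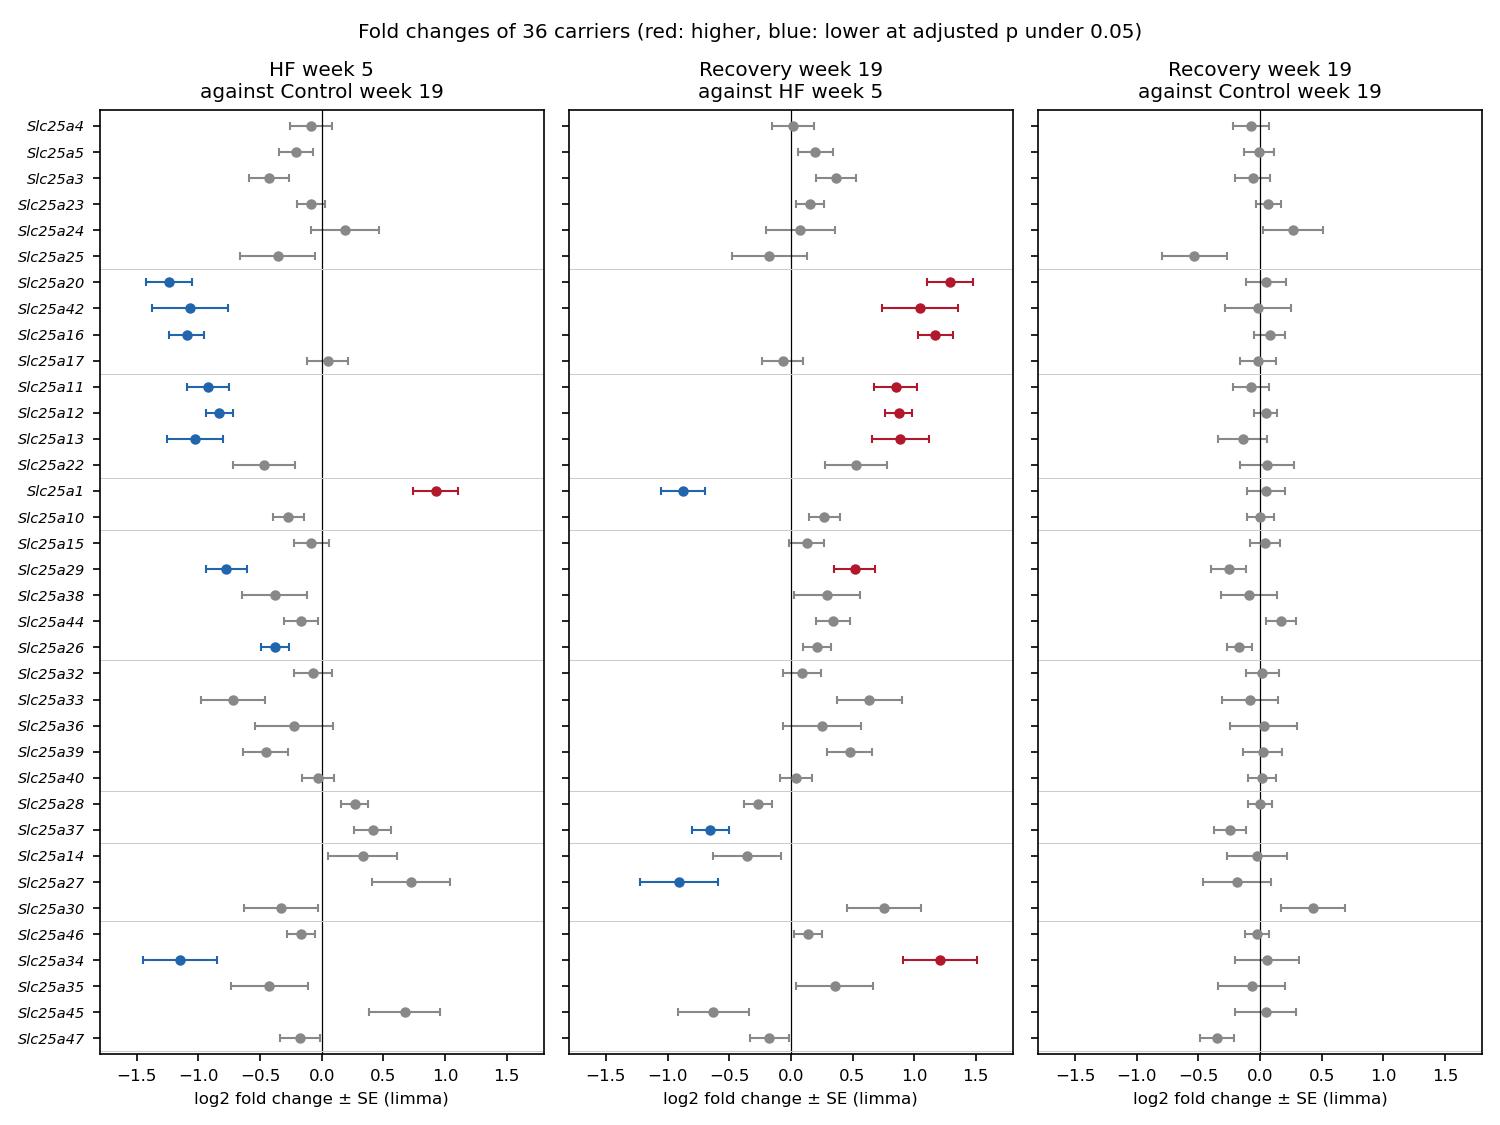
Log2 fold changes (points) with SE from limma (bars) of 36 carriers in 3 comparisons, ordered by role and coloured by call at an adjusted p under 0.05. The first panel has 9 blue points and 1 red, the second 8 red and 3 blue, and the third none. The first 2 panels share the HF week 5 libraries.

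The enzymes that work with these carriers were read from lists chosen with earlier results of these data known, and the same fit was used. Of the 4 malate-aspartate shuttle enzymes, 3 fell at HF week 5: Got1 (log2 fold change -1.05), Got2 (-0.88) and Mdh1 (-0.70), the aminotransferases and the cytosolic malate dehydrogenase, while Mdh2 was at -0.34 (limma adjusted p = 0.111). Of 5 genes of the carnitine shuttle 3 fell: Cpt2 (-0.87), Crat (-0.56) and Cpt1b (-0.52), the acyltransferases on either side of Slc25a20. Of 3 outer membrane channels Vdac1 fell (-0.95). Of 13 genes that import carriers into the inner membrane, 3 fell, Tomm5 (-0.56), Tomm40 (-0.51) and Tomm70a (-0.41), and none rose. Over all genes 12.4% fell and 11.6% rose in this comparison, and counts on lists this short are given only as a description.

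A reference list of 14 matrix and inner membrane genes, with respiratory chain and citrate cycle subunits, had 10 lower and 0 higher in the same limma comparison. Its median log2 fold change was -0.65, lower than the -0.27 of the carriers, and Sdha, a subunit of succinate dehydrogenase, was lowest at -1.14. The list and the carriers were not matched for level, and the difference between their medians was not tested. Among 19 other transporters of the inner membrane, 3 rose (Sfxn1, Sfxn3 and Slc24a6) and 5 fell, including Ccdc109a, the pore of the calcium uniporter, at -1.18. Of 8 kinases of energy transfer, Ckmt1 rose, Ak1 and Ak4 fell, and 5 were not called. The counts of 3 of 19 and 1 of 8 that rose are near the 11.6% of all genes.

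Of 6 tested carriers of the same family that have other symbols, Mcart1 fell (log2 fold change -0.38). Ucp1, the uncoupling protein of brown fat, passed the filter on low values only through the HF libraries, so its test is not used. Ucp1 was listed at 0 in all control libraries and measured 13.03, 1.68 and 0.292 FPKM at HF week 5, so no fold is given. Adipoq, a product of fat cells, was 10.5, 15.6 and 0.0516 FPKM in the same libraries and at most 0.0961 FPKM in controls. The summed fat cell markers were likewise above controls in libraries 1 and 2 and not in library 3, and their part in these values was not tested. Ucp2 measured 81.8, 20.2 and 21.4 FPKM at HF week 5 compared to 21.0 to 24.97 FPKM in controls, high in library 1 alone, and was not called (limma adjusted p = 0.234).

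The comparison of Recovery week 19 with HF week 5 asked how members differed once the agents had been withdrawn for 14 weeks. Recovery week 19 was also taken 14 weeks later, so age and withdrawal cannot be told apart in it. This comparison shares the HF libraries with the one above, so the pair is not independent. Of 37 members 12 were called, 9 higher and 3 lower, where 24.2% of all genes were called, 12.3% higher and 12% lower. Among those higher were Slc25a20, Slc25a16, Slc25a42, Slc25a11, Slc25a12, Slc25a13, Slc25a34 and Slc25a29, and those lower were Slc25a1, Slc25a37 and Slc25a27. Slc25a26 was not called (log2 fold change 0.21, limma adjusted p = 0.183). Libraries did not overlap for 15 members, or 40.5%, compared to 26.7% of all genes, and 21 members passed an unadjusted p under 0.05, where 36.8% of all genes did. Markers of other cells moved here too, with 3 of 8 fibroblast, 3 of 7 endothelial, 4 of 4 smooth muscle and 4 of 4 atrial genes called lower and 2 of 10 cardiomyocyte genes called higher. Leukocyte and blood markers again had 0 of 7 and 0 of 3 called. The summed fat cell markers were 31.9 to 49.5 FPKM at Recovery week 19, and were 280, 259 and 38.0 FPKM at HF week 5. The part of these markers in the carrier values was not tested.

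Slc25a20 measured 98.1, 130, 123, 109 and 118 FPKM at Recovery week 19, with every library above every HF week 5 library. The log2 fold change from HF week 5 was 1.29 ± 0.19 (SE, limma adjusted p = 0.000155). Slc25a16 measured 4.75, 5.48, 4.73, 4.38 and 3.803 FPKM and rose by 1.17 ± 0.14 on the log2 scale (SE, limma adjusted p = 4.30e-05). The coenzyme A carrier Slc25a42 measured 25.9, 18.9, 23.6, 22.6 and 13.5 FPKM, overlapped with HF week 5 in its lowest library, and rose by 1.05 ± 0.31 (SE, limma adjusted p = 0.0186). Without HF library 1 the rise of Slc25a42 was 0.65 (adjusted p = 0.1804).

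For the malate-aspartate shuttle, Slc25a11 measured 313, 394, 388, 337 and 431 FPKM, Slc25a12 58.2, 67.6, 61.0, 58.7 and 58.4 FPKM, and Slc25a13 26.9, 27.4, 25.3, 21.4 and 19.3 FPKM at Recovery week 19. All of these libraries were above those of HF week 5. The log2 fold changes from HF week 5 were 0.85 for Slc25a11 (limma adjusted p = 0.00192), 0.87 for Slc25a12 (5.22e-05) and 0.89 for Slc25a13 (0.00905). Without HF library 1 Slc25a11 was at 0.53 and still called (adjusted p = 0.0150), and Slc25a13 lost its call (0.41, adjusted p = 0.0705). Slc25a34 measured 49.9, 54.2, 62.9, 53.5 and 65.2 FPKM, all above HF week 5, and rose by 1.21 ± 0.30 (SE, limma adjusted p = 0.00732), or by 0.55 without library 1 (adjusted p = 0.0363).

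The citrate carrier Slc25a1 measured 4.05, 5.94, 5.03, 5.66 and 6.08 FPKM at Recovery week 19, below all HF libraries, and fell by 0.88 on the log2 scale (limma adjusted p = 0.00217). Slc25a37 measured 5.12, 3.23, 3.17, 3.27 and 2.79 FPKM and also fell (log2 fold change -0.65 ± 0.15 SE, limma adjusted p = 0.00420). Its library 1 was close to the HF values and the other 4 were below 3.3 FPKM. Slc25a27, an uncoupling protein-like carrier, went from 2.38, 3.12 and 1.90 FPKM to between 0.424 and 2.13 FPKM with overlap. Its limma adjusted p was 0.0440 and its call was kept in 8 of 18 alternatives. Slc25a29 rose by 0.52 on the log2 scale (limma adjusted p = 0.0297).

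Without HF week 5 library 1, 8 members were called from HF week 5 to Recovery week 19, 6 higher and 2 lower. The calls of Slc25a13, Slc25a27, Slc25a29 and Slc25a42 were lost. Slc25a29 went from a log2 fold change of 0.52 to 0.31 (limma adjusted p = 0.247), whereas that of Slc25a27 was -0.91 with library 1 and -0.92 without it (adjusted p = 0.116). Of the partner genes, 3 of 4 malate-aspartate shuttle enzymes rose in the same comparison, Got1 (log2 fold change 1.11), Got2 (0.81) and Mdh1 (0.63), as did 9 of the 14 reference genes, where 12.3% of all genes rose. Of 5 carnitine shuttle genes 1 rose, Cpt2 (0.73), while Cpt1b (0.45, limma adjusted p = 0.0548) and Crat (0.44, adjusted p = 0.106) were not called. Vdac1 (0.88) was the 1 of 3 outer membrane channels and Tomm40 (0.45) the 1 of 13 import genes that rose. Ucp1 was listed at 0 in all 5 Recovery week 19 libraries.

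Recovered hearts were then compared to control hearts of the same age. With limma, 0 of 37 members were called in Recovery week 19 against Control week 19, where 0.0235% of all genes were called. At an unadjusted limma p under 0.05 there was 1 member, Slc25a47, where 2.88% of all genes passed. Slc25a47, of unclear substrate, was at 3.85 ± 0.551 FPKM in Recovery week 19 and 5.03 ± 0.682 FPKM in Control week 19 (SD, n = 5 each). Member log2 fold changes ran from -0.53 for Slc25a25 to 0.43 for Slc25a30, with a median of -0.01. A p above the threshold does not show that levels were equal. The SE was 0.16 for Slc25a20, 0.10 for Slc25a12 and 0.16 for Slc25a1, whose log2 differences from control were each 0.05. Slc25a4 held 72.5% to 74.2% of the family sum at Recovery week 19, overlapping with the range of controls.

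At HF week 3, before the end of induction, 3 of 4 tested carriers of fatty acids and coenzyme A and 4 of 4 of the malate-aspartate and glutamate group were lower than in control hearts, and the citrate carrier was higher. Slc25a17 was the exception among the former (log2 fold change -0.40, limma adjusted p = 0.0924), with a value that turned on the library kept: 0.17 without library 1 (adjusted p = 0.394) and -0.97 without library 2 (called, adjusted p = 1.83e-05). Of 37 members 22 were called, 18 lower and 4 higher, but 50.7% of all genes were called as well, 27.6% lower and 23.1% higher. The HF week 3 and HF week 5 comparisons share their control libraries and were not tested against each other. Myh6 was listed above 0 at HF week 3 and at 0 in Control week 19. A processing difference therefore cannot be told apart from treatment in this comparison. Markers of other cells moved here as well: 6 of 8 fibroblast, 5 of 7 endothelial, 2 of 4 smooth muscle, 3 of 4 atrial and 2 of 7 leukocyte genes were called higher, and 1 endothelial, 1 atrial and 1 leukocyte gene lower. The libraries had fibroblast sums of 747 and 740 FPKM, endothelial sums of 314 and 436 FPKM, fat cell sums of 258 and 124 FPKM, and atrial sums of 7740 and 14100 FPKM although Nppa was listed at 0. Of 10 cardiomyocyte markers 5 were called lower, and their sum without Myh6 was 26000 and 23300 FPKM. The part of these shifts in the carrier values was not tested.

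Slc25a20 measured 21.4 and 30.7 FPKM at HF week 3 (log2 fold change -2.10 ± 0.21 SE, limma adjusted p = 5.12e-07) and Slc25a42 2.75 and 5.45 FPKM (-2.27 ± 0.35 SE, adjusted p = 4.97e-05). Slc25a12, at 16.5 and 21.2 FPKM (log2 fold change -1.63), and Slc25a11, at 123 and 156 FPKM (-1.49), were likewise below all controls. Slc25a1 was higher at 17.4 and 10.2 FPKM (log2 fold change 1.30 ± 0.21 SE, limma adjusted p = 6.26e-05). All 4 tested members of the malate-aspartate and glutamate group were called lower there, Slc25a22 among them (log2 fold change -0.91, limma adjusted p = 0.0128), although not without library 1 (-0.39, adjusted p = 0.399).

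Several values at HF week 3 differed between library 1, the library with fewer genes above 0, and library 2. In library 1 Slc25a36 was listed at 0 and Slc25a24 at 7.99 FPKM, compared to 1.69 and 1.77 FPKM in library 2. Slc25a38, the glycine carrier, was 44.4 and 10.3 FPKM in the pair. Without library 1, Slc25a1 was still above control (log2 fold change 0.93), whereas Slc25a33 and Slc25a38 were below it (-0.88 and -0.47). The calls of Slc25a5, Slc25a10, Slc25a14, Slc25a22, Slc25a23, Slc25a24, Slc25a35, Slc25a36, Slc25a37 and Slc25a39 were lost, with 1 library left in the group and the spread taken from the other groups. For 8 of these the log2 fold change moved by more than 1.5 times: Slc25a24 went from 1.15 to 0.19, Slc25a14 from 0.94 to 0.22, Slc25a36 from -1.50 to -0.44, Slc25a35 from -1.67 to -0.66, Slc25a22 from -0.91 to -0.39, Slc25a39 from -0.89 to -0.44, Slc25a5 from -0.56 to -0.26 and Slc25a10 from -0.46 to -0.26. Those of Slc25a37 (0.50 and 0.46) and Slc25a23 (-0.39 and -0.31) stayed within 1.5 times.

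**Figure D5:**
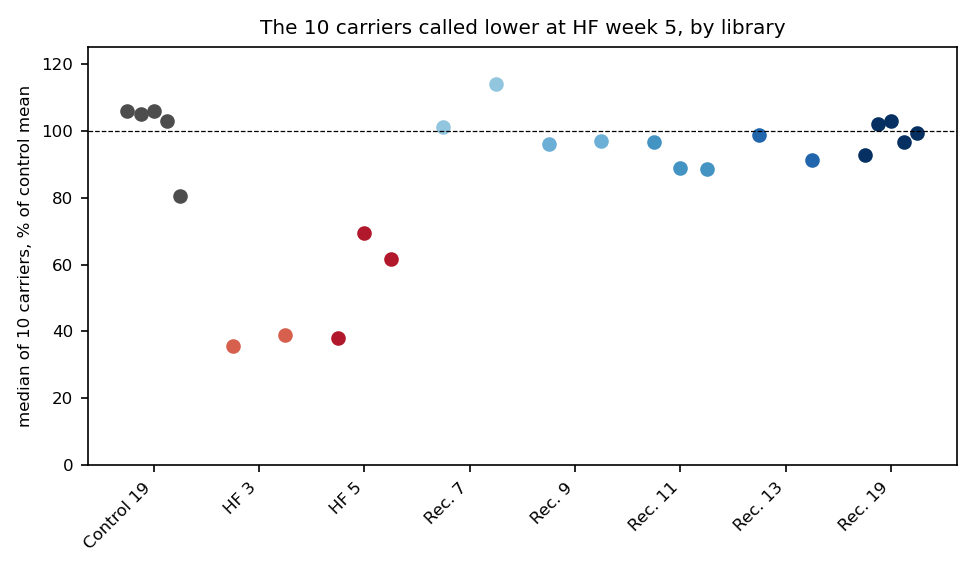
Median of the 10 carriers called lower at HF week 5, as a percentage of their Control week 19 means, in each library (points) by group. The HF libraries lie between 35.5% and 69.3% and the Recovery libraries between 88.5% and 114%, while control library 5 is at 80.4%.

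The Recovery groups of weeks 7 to 13 lie between the end of induction and week 19. With the groups of weeks 7, 9, 11 and 13 averaged, 18 of 37 members were called against HF week 5, 13 higher and 5 lower, where 22.1% of all genes were called, 11.2% higher and 10.9% lower. In the same comparison 2 of 8 fibroblast, 4 of 7 endothelial, 4 of 4 smooth muscle and 4 of 4 atrial markers were called lower. Leukocyte and blood markers had 0 of 7 and 0 of 3 called in either direction. Of 10 cardiomyocyte markers 3 were called higher, Myh6 among them. Myh6 was listed at 0 in every HF week 5 library, so its call followed from the listing and is not used. The summed fat cell markers were 32.4 to 43.1 FPKM in these Recovery libraries. The part of these markers in the carrier values was not tested. Among those higher were Slc25a20, Slc25a16 and Slc25a42 of the fatty acid group, Slc25a11, Slc25a12 and Slc25a13 of the shuttle, Slc25a3, Slc25a10, Slc25a29, Slc25a33, Slc25a34 and Slc25a39. Those lower were Slc25a1, Slc25a27, Slc25a28, Slc25a37 and Slc25a47. The median of the 10 carriers chosen for their fall was 101% and 114% of control in the libraries of week 7, 2 weeks after the end of induction, and 88.5% to 98.8% in those of weeks 9 to 13. The control and HF means chose these members, so the percentages are a description.

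Slc25a20 was between 91.5 and 122 FPKM in the 9 libraries of Recovery weeks 7 to 13, with a median of 106 FPKM, above every HF week 5 library (log2 fold change 1.16 ± 0.17 SE, limma adjusted p = 0.000189). Slc25a33 was between 19.9 and 34.5 FPKM with a median of 24.7 FPKM, above all of HF week 5 (log2 fold change 1.23 ± 0.24 SE, limma adjusted p = 0.00139). Its levels in these weeks mostly exceeded those of Control week 19, with a log2 difference of 0.51 that was not called (limma adjusted p = 0.601). Slc25a37 was between 2.16 and 4.61 FPKM with a median of 2.74 FPKM, below all of HF week 5 (log2 fold change -0.75 ± 0.14 SE, limma adjusted p = 0.000934), and its relative Slc25a28 fell by 0.37 (limma adjusted p = 0.0147), a call lost without HF week 5 library 1.

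Without HF week 5 library 1, 9 of the 18 calls were left, 8 higher and 1 lower, with Slc25a11, Slc25a12, Slc25a13, Slc25a16, Slc25a20, Slc25a33 and Slc25a34 among those higher and Slc25a37 lower. Of the 9 lost calls, 3 had log2 fold changes that moved by more than 1.5 times, Slc25a42 from 0.87 to 0.47, Slc25a3 from 0.49 to 0.27 and Slc25a29 from 0.48 to 0.27. The other 6 moved less: Slc25a1 from -0.62 to -0.47, Slc25a28 from -0.37 to -0.29, Slc25a39 from 0.53 to 0.44, Slc25a10 from 0.41 to 0.40, Slc25a47 from -0.47 to -0.52, and Slc25a27 to -1.01, within 0.05 of its value with all libraries. Against Control week 19, 0 of 37 members were called with limma in Recovery weeks 7 to 13, where 0.0705% of all genes were called. At an unadjusted limma p under 0.05 there were 5 members, where 6.9% of all genes passed: Slc25a1 and Slc25a33 higher, and Slc25a29, Slc25a37 and Slc25a47 lower. Slc25a47 was nearest to the threshold (log2 fold change -0.64 ± 0.12 SE, limma adjusted p = 0.0566), with 2.16 to 4.88 FPKM in the 9 libraries and 4.29 to 6.06 FPKM in controls. Libraries of Recovery weeks 7 to 13 and HF week 3 list Myh6 above 0. Those of HF week 5 and week 19 list it at 0. A processing difference therefore cannot be told apart from time or treatment in comparisons across these sets.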

How the data were processed

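Mouse heart RNA was sequenced as paired-end reads after poly(A) enrichment. The authors aligned them with TopHat to MGSCv37 (mm9) and deposited FPKM from Cuffdiff, 1 value per gene and library. The annotation and the scaling between libraries are not given in the sources used here. Of the columns, 24 were matched by name to 8 labelled groups. Another 5, named for the week 5 controls, outnumber the 4 labelled samples and were not used. Recovery week 9 has 2 columns and 3 labelled samples, and its columns were used.

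Values were fitted as log2(FPKM + 0.5) with limma 3.58.1 in R 4.3.3 for the 12759 genes that averaged 0.5 FPKM or more, with a mean per group, 16 residual degrees of freedom, eBayes with a trend and two-sided tests, called at a Benjamini-Hochberg adjusted p under 0.05. The script was tested on simulated data. The groups of Recovery weeks 7 to 13 entered with equal weight.

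Members and lists were chosen with earlier results of these data known. Values in every control and HF week 5 library are given for the 5 most abundant members, up to 6 largest called changes in each direction at HF week 5 and the tested members of paralogue groups. Roles, motifs GGGCGG and AAGGTCA, and Slc25a10, Slc25a17, Slc25a26, Slc25a27, Slc25a29, Slc25a35, Slc25a38, Slc25a44, Slc25a45 and Slc25a47, were chosen after the values were seen. The counts cover all members, and 1 member is not reported here by name. Alternatives changed the pseudocount (0.1, 1), the filter (none, 1 FPKM), scaling (median, quantile), eBayes, the groups fitted, the threshold and each library in turn.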

Additional observations from a re-analysis of the deposited data

Results flagged for a closer look

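Within the groups of 5 libraries, 1 library lay far from the other 4 for 4 of 46 combinations of a carrier and a group tested, where chance gives about 1 in 20. Of these, 3 fell in 1 library. In Control week 19 library 5, Slc25a11 was at 339.9 FPKM compared to 394.1 to 412.0 FPKM in the others, Slc25a34 at 37.68 compared to 57.77 to 62.66 FPKM, and Slc25a42 at 11.03 compared to 22.61 to 25.46 FPKM. All 3 are members called lower at HF week 5, and without this control library 13 members were called there in place of 11. In Recovery week 19, Slc25a37 was at 5.12 FPKM in library 1 compared to 2.794 to 3.269 FPKM in the others.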

How the results depend on the processing

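No paired analysis was possible because the columns carry only running numbers, which the labels do not tie to animals. Each count below is of 37 members called. The share of all genes called under each setting is not given, so the counts only describe how far the calls moved.

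At an unadjusted p under 0.05 in place of the adjusted one, the counts became 19 in HF week 5 against Control week 19 (11 in the text), 21 in Recovery week 19 against HF week 5 (12), 1 in Recovery week 19 against Control week 19 (0) and 5 in Recovery weeks 7 to 13 against Control week 19 (0). Without the HF week 3 libraries the counts were 18 in the first and 18 in the second of these. Without both HF week 5 library 1 and HF week 3 library 1, chosen after seeing the data, HF week 3 against Control week 19 gave 14 (22 in the text). Slc25a47 was the 1 member called in Recovery weeks 7 to 13 against Control week 19 with a filter at 1 FPKM, with only the groups compared, without the HF week 3 libraries and without both libraries.

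Leaving out 1 library at a time gave 9 to 13 calls in HF week 5 against Control week 19, 8 to 14 in Recovery week 19 against HF week 5, 14 to 27 in HF week 3 against Control week 19, 9 to 18 in Recovery weeks 7 to 13 against HF week 5 and 0 to 1 in Recovery weeks 7 to 13 against Control week 19. Where 1 library was left in a group, it was assumed to vary like the others. Without HF week 3 library 1, Slc25a33 and Slc25a38 turned from above to below 0 in HF week 3 against Control week 19 (log2 fold changes -0.88 and -0.47, limma adjusted p 0.00770 and 0.0391), and likewise without both libraries. Without HF week 3 library 2, Slc25a33 and Slc25a38 were at 0.93 and 1.59 and called higher (limma adjusted p 0.00170 and 1.85e-07). Fitting only the groups compared, which changes the spread and not the fold change, lost Slc25a34 and Slc25a42 at HF week 5 and added Slc25a27, Slc25a33, Slc25a37, Slc25a39 and Slc25a45 (14 calls). In Recovery week 19 against HF week 5 it lost Slc25a13, Slc25a27, Slc25a29 and Slc25a34 and added Slc25a33, Slc25a44 and Slc25a45 (11 calls). It gave 17 calls in HF week 3 against Control week 19 and 22 in Recovery weeks 7 to 13 against HF week 5. Quantile scaling gave 18 calls in Recovery week 19 against HF week 5. The cause of these changes was not tested.

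Centring on the median moved the share of calls that were higher, over all genes, from 48.4% to 37.4% in HF week 5 against Control week 19 and from 50.7% to 65.4% in Recovery weeks 7 to 13 against HF week 5. Depth limits the members under 1 FPKM, and with 2 or 3 libraries in most groups a call not made is no sign of equal levels.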
